A study of Mus musculus with 15 samples.

Results

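The genes described here are 10 targets of the transcriptional co-activator YAP: Ccn1, Ccn2, Ankrd1, Amotl2, Axl, Ajuba, Myof, Dock5, Msln and F3. They were taken by gene symbol from a count table of 78298 genes, and all 10 were listed there once. The 15 poly-A RNA-seq libraries, 3 for each of 5 conditions, came from mouse organoids, three-dimensional cultures of small intestinal epithelium grown from crypts of female C57BL/6J mice. The paper also used mice with an LGR5 reporter, and it does not state the background of the sequenced Halo-NLS line. Every line had been made by lentiviral transduction under the ubiquitous L30 promoter and by puromycin selection. The control line expressed a V5-tagged HaloTag with a nuclear localization signal (Halo-NLS), and the other lines expressed SOX9, a transcription factor of intestinal crypts, fused to the HaloTag (SOX9-Halo) or to the green fluorescent protein mEGFP (SOX9-mEGFP). Each SOX9 line was sampled once as budding organoids and once, at a later passage, as spheroids (SOX9-mEGFP_budding and SOX9-mEGFP_spheroid, SOX9-Halo_budding and SOX9-Halo_spheroid). The paper's methods describe a second transduction of the SOX9 lines, with H2B-mEGFP for SOX9-Halo and H2B-mScarletI for SOX9-mEGFP. The sequenced spheroids may have carried this second transgene. Morphology, passage and any second transgene therefore cannot be told apart, and each construct was represented by 1 selected line. The replicates were biological ones, taken at neighbouring passages of a line. Nothing says that they came from separate animals, so p-values measure the spread between samples of a line.

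YAP (gene Yap1) and its paralog TAZ (gene Wwtr1) shuttle between cytoplasm and nucleus. The Hippo kinases LATS1 and LATS2 phosphorylate them and keep them out of the nucleus, and unphosphorylated YAP and TAZ join TEAD factors on DNA and raise transcription of target genes. In the intestine this pathway is known for its part in regeneration after injury. The targets have diverse products: Ccn1 and Ccn2 encode secreted matrix-associated proteins, Amotl2 and Ajuba encode adaptors that themselves act in Hippo signalling, and others encode membrane or cytoskeletal proteins.

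TEAD factors recognise the letters CATTCC, which read GGAATG on the other strand. Within 250 bases upstream of the start site of the canonical transcript (GRCm39, GENCODE M39), 4 of the 10 genes held this motif on either strand, namely Ccn1, Ccn2, Amotl2 and Axl, against 12.1% of 21757 such windows of all genes. The last 150 bases before the start site are shown for these 4 genes, because they allow the letters to be set beside the levels, on the strand of the gene, with the TEAD motif in capitals. They come from chr3:145355739-145355888 (Ccn1, minus strand), chr10:24471183-24471332 (Ccn2, plus strand), chr9:102594717-102594866 (Amotl2, plus strand) and chr7:25488330-25488479 (Axl, minus strand).
Ccn1: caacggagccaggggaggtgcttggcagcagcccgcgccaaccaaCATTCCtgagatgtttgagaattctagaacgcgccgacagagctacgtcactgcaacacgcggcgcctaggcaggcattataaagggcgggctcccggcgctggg
Ccn2: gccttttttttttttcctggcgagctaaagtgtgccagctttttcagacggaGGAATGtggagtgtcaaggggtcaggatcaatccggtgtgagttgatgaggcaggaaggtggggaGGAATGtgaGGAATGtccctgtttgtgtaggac
Amotl2: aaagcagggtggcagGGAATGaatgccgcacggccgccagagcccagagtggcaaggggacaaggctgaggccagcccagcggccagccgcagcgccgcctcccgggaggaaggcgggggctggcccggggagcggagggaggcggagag
Axl: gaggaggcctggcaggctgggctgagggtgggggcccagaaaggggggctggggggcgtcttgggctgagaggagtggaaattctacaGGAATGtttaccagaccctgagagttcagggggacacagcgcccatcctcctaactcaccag
Ccn2 held 3 matches, beginning 98, 33 and 24 bases before its start site, and Ccn1 held 1, beginning 105 bases before it. A further match of Amotl2 began 235 bases before the start site and is not shown. The AP-1 motif TGANTCA, read on both strands, occurred in the window of 1 gene, F3, which held 2 matches, against 6.18% of all windows. The SOX motif AACAAT and the CArG box of serum response factor, both also read on both strands, were in 0 of the 10 windows, against 9.66% and 1.4% of all windows. The TATA box TATAAA, read on the strand of the gene, occurred upstream of Ccn1 alone, against 8.04% of all windows. The motifs did not overlap in these windows. Axl, with a TEAD match, was near 0 in every library, and Myof and Msln, without one in this window, were among the most abundant of the 10 in spheroids. The windows of Amotl2, Dock5, F3 and Msln lie inside the annotated genes, whose other transcripts start further upstream. For Msln the canonical start site is at 25973432, and the gene, on the minus strand, begins at 25985619. Sequence upstream of other start sites was not examined.

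**Figure D1:**
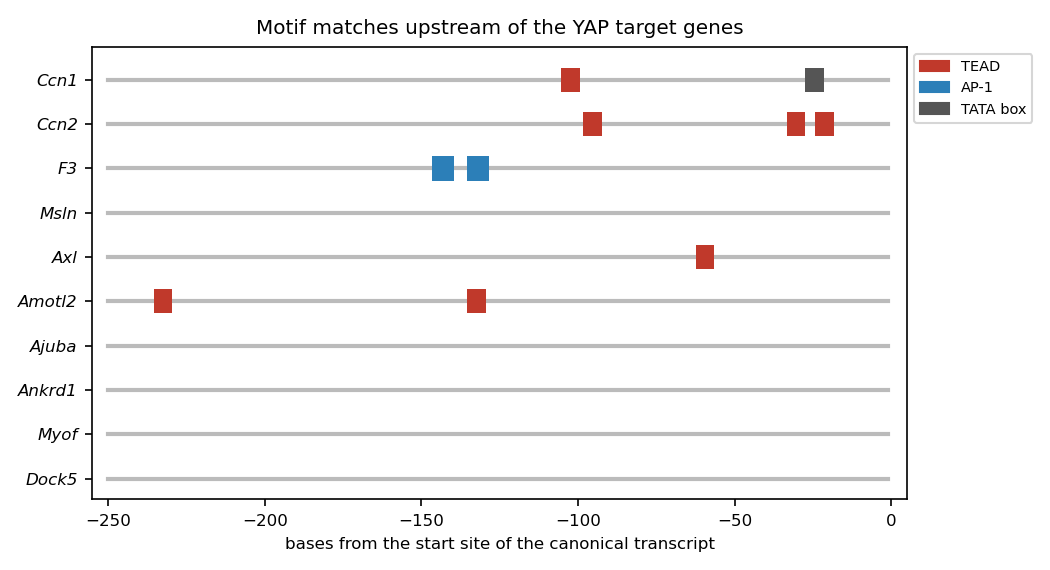
Motif matches in the 250 bases upstream of the canonical start site of each gene, with the distance in bases from the start site on the horizontal axis and each coloured block a match. TEAD matches stand upstream of Ccn1, Ccn2, Axl and Amotl2, AP-1 matches upstream of F3, and a TATA box upstream of Ccn1.

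Levels are given as CPM, a gene's count relative to the size of its library, on library sizes scaled by TMM, with mean ± SD over 3 libraries. Of the 10 genes, 9 passed the filter on low counts and were tested. Ccn2 and Ankrd1 passed it only through spheroid libraries, so a difference between spheroids and the other organoids was built into their passing. A gene was called where edgeR's quasi-likelihood test over 17560 genes gave a Benjamini-Hochberg adjusted p of at most 0.01, the log2 fold change was at least 1 in size and the mean normalized count at least 10. All adjusted p-values are of this test unless DESeq2 is named. In bulk RNA, more cells with a transcript and more transcript per cell cannot be told apart. As a check of the labels, Sox9 was at 15.8 ± 6.91 CPM in Halo-NLS and at means of 186 to 490 CPM in the SOX9 conditions, where it ranged from 39.8 to 314 CPM among SOX9-Halo_budding libraries. Depth ranged from 28062722 to 40559766 counts per library.

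From budding organoids to spheroids of the same line, 7 of the 10 genes were called higher in the SOX9-mEGFP line, where 8.55% of all genes tested were called higher and 7.88% lower. Within the SOX9-Halo line 7 were also called higher, against 10.5% of all genes tested called higher and 14.7% lower. Leaving aside Ccn2 and Ankrd1, 5 genes were called higher in each line. The median log2 fold change over the 7 tested genes other than these was 3.67 in the SOX9-mEGFP line and 3.08 in the SOX9-Halo line, and that of all genes tested was -0.04 and -0.08. Ccn2, Ankrd1, Amotl2, Ajuba, Myof and Msln were called in both lines. F3 was called in the SOX9-mEGFP line and Ccn1 in the SOX9-Halo line, Dock5 in neither, and Axl could not be tested.

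**Figure D2:**
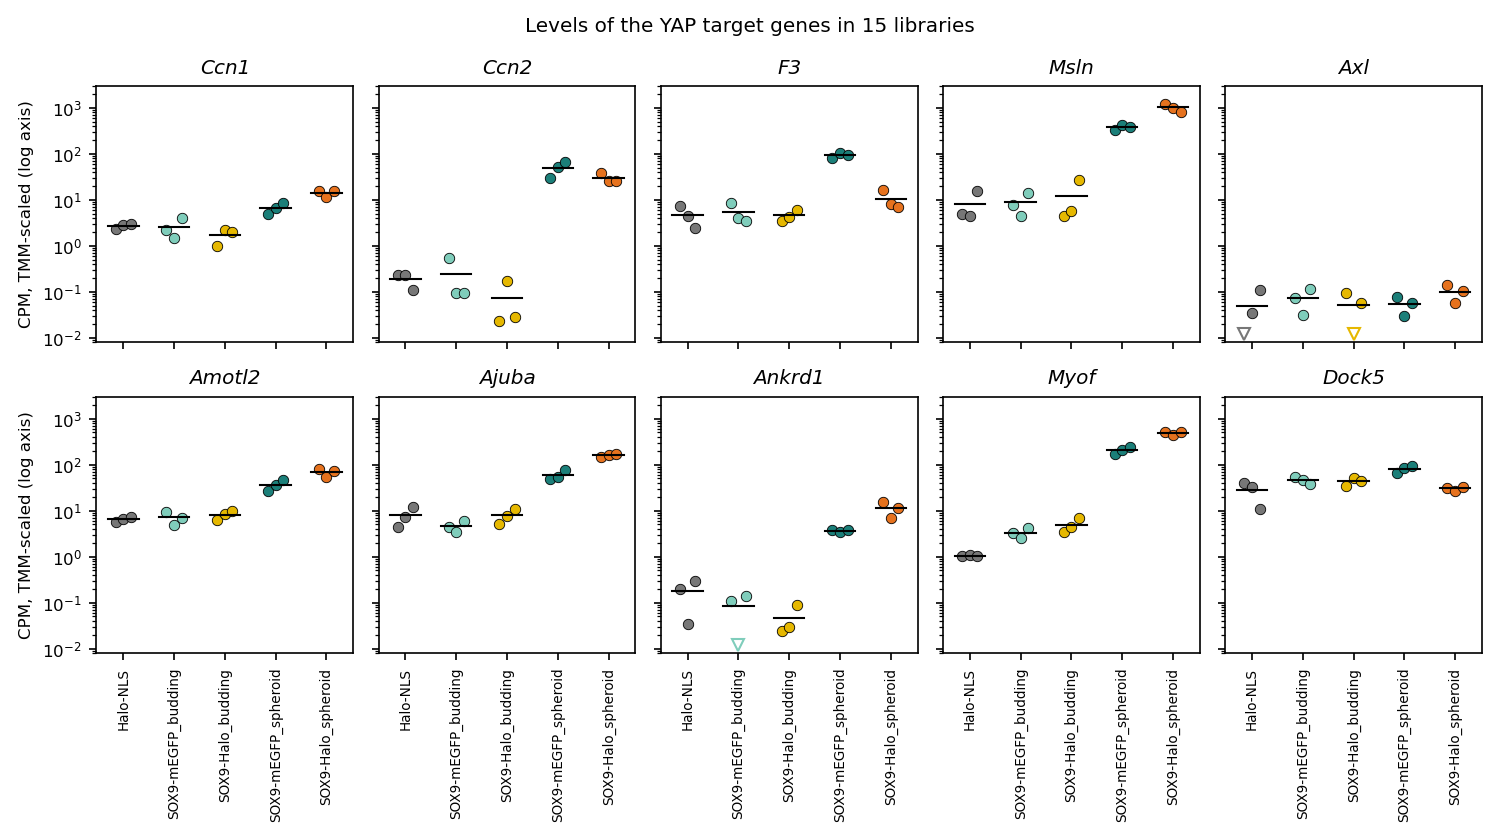
Level of each of the 10 genes in the 15 libraries, in TMM-scaled CPM on a log axis, by condition; points are libraries, lines are means, and open triangles at the bottom stand for libraries with no count. Most genes lie far higher in both spheroid conditions, Dock5 does not, F3 is high in SOX9-mEGFP_spheroid, and Axl is near 0 throughout.

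Per length of exon sequence, the order of the genes also differed between conditions. In Halo-NLS organoids Dock5 was the highest of the 10 at 2.22 RPKM (condition mean of CPM divided by the exon length in kilobases), followed by Ajuba at 2.07 and Msln at 1.86 RPKM. This order did not hold in every library, as Halo-NLS replicate 3 had Dock5 at 10.9 CPM, below Ajuba (12.0) and Msln (15.5). In SOX9-Halo_spheroid the highest were Msln at 227, Ajuba at 42.2 and Myof at 35.8 RPKM, and Dock5 was at 2.43 RPKM. In SOX9-mEGFP_spheroid Msln was highest at 84.4 RPKM, with F3 next at 30.5 RPKM. The summed level of the 10 genes ranged from 52.9 to 66.4 CPM in Halo-NLS, from 67.9 to 90.9 CPM in SOX9-mEGFP_budding and from 58.9 to 106 CPM in SOX9-Halo_budding. It ranged from 752 to 1025 CPM in SOX9-mEGFP_spheroid and from 1692 to 2080 CPM in SOX9-Halo_spheroid, mostly through Msln and Myof.

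Ccn1 (Cyr61) and Ccn2 (Ctgf) encode secreted matricellular proteins of the CCN family and are among the most used readouts of YAP and TAZ. Ccn1 lies at chr3:145352720-145355738. Its level was 2.30, 2.84 and 3.03 CPM in the Halo-NLS libraries, 2.21, 1.45 and 4.04 CPM in SOX9-mEGFP_budding and 1.02, 2.23 and 2.01 CPM in SOX9-Halo_budding. It was 5.02, 6.80 and 8.46 CPM in SOX9-mEGFP_spheroid and 15.6, 11.6 and 15.9 CPM in SOX9-Halo_spheroid. All spheroid libraries thus lay above all others, and the 2 spheroid conditions did not overlap. From budding to spheroid Ccn1 was 8.18-fold higher in the SOX9-Halo line (log2 fold change 3.03, SE 0.39, adjusted p = 1.55e-05). In the SOX9-mEGFP line its mean was 2.63-fold higher, with a log2 fold change of 1.39 (SE 0.37) and an adjusted p of 0.0102, just past the threshold. The adjusted p there was 0.002 without SOX9-mEGFP_budding replicate 3, 0.0069 without SOX9-Halo_budding replicate 1 and 0.0093 without SOX9-Halo_budding replicate 2, each of which would make it a call, and DESeq2 gave 0.0022. Over all alternatives the adjusted p ranged from 0.0018 to 0.058, and 8 of them gave a call while 16 did not. Leaving out single libraries gave log2 fold changes from 1.09 to 1.83.

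Ccn2 lies at chr10:24471333-24474900. It had 6, 7 and 3 counts in the Halo-NLS libraries, 15, 3 and 4 in SOX9-mEGFP_budding and 1, 6 and 1 in SOX9-Halo_budding, at most 0.543 CPM. In spheroids it was at 30.0, 51.0 and 67.9 CPM in the SOX9-mEGFP line and at 39.2, 26.1 and 26.1 CPM in the SOX9-Halo line. It was the gene with the widest gap between budding organoids and spheroids, and the 2 spheroid conditions overlapped. Summed over libraries, the ratio of spheroid to budding was 230 (95% exact interval 152 to 367) in the SOX9-mEGFP line and 414 (210 to 959) in the SOX9-Halo line, where intervals cover counting error only. The fitted log2 fold changes were 7.76 (SE 0.65, adjusted p = 7.1e-07) and 8.64 (SE 0.71, adjusted p = 1.84e-07). They depended on single libraries in size: without SOX9-mEGFP_budding replicate 1, which holds 15 counts, the first was 9.01, and without SOX9-Halo_budding replicate 2, which holds 6, the second was 10.0.

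F3 encodes tissue factor, the membrane protein that starts the extrinsic coagulation pathway, and lies at chr3:121516610-121528820. Its level was 7.32, 4.38 and 2.43 CPM in Halo-NLS, 8.76, 4.05 and 3.50 CPM in SOX9-mEGFP_budding and 3.53, 4.29 and 6.19 CPM in SOX9-Halo_budding. It was 81.2, 105 and 97.2 CPM in SOX9-mEGFP_spheroid, and 16.6, 8.06 and 7.00 CPM in SOX9-Halo_spheroid. SOX9-mEGFP_spheroid stood alone, and the SOX9-Halo_spheroid libraries lay just above their budding counterparts. Within the SOX9-mEGFP line F3 was 17.4-fold higher in spheroids (log2 fold change 4.12, SE 0.48, adjusted p = 1.39e-05). Within the SOX9-Halo line the log2 fold change was 1.17 (SE 0.44, 95% interval 0.24 to 2.10, adjusted p = 0.043), which was not called.

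Msln encodes mesothelin, a cell surface glycoprotein best known from mesothelium and from several carcinomas, and lies at chr17:25967312-25985619. It was at 4.99, 4.58 and 15.5 CPM in Halo-NLS, at 7.75, 4.55 and 14.3 CPM in SOX9-mEGFP_budding and at 4.53, 5.86 and 26.6 CPM in SOX9-Halo_budding. In each of these 3 conditions the library numbered 3 was the highest. It was at 325, 422 and 393 CPM in SOX9-mEGFP_spheroid and at 1229, 1006 and 834 CPM in SOX9-Halo_spheroid, so that the spheroids lay far above all other libraries and apart from each other. Msln was the most abundant of the 10 genes in spheroids of both lines. Its log2 fold change from budding to spheroid was 5.42 (SE 0.72, adjusted p = 4.43e-05) in the SOX9-mEGFP line and 6.37 (SE 0.75, adjusted p = 6.59e-06) in the SOX9-Halo line. The second was 7.64 without SOX9-Halo_budding replicate 3. Other markers of mesothelium did not move with it: the summed level of Upk3b, Upk1b, Lrrn4, Wt1, Rspo1 and Bnc1 was 34.0 to 54.7 CPM in Halo-NLS, 25.8 to 60.2 CPM in SOX9-mEGFP_budding and 8.37 to 33.2 CPM in SOX9-Halo_budding. It was 2.70 to 6.32 CPM in SOX9-mEGFP_spheroid and 0.310 to 0.424 CPM in SOX9-Halo_spheroid, with Bnc1 at 0 in both, and Rspo1 was at 0 in all 5 conditions. In Halo-NLS nearly all of this sum came from Upk3b, at a mean of 39.3 CPM.

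Axl encodes a receptor tyrosine kinase for GAS6 and lies at chr7:25456535-25488329. It had from 0 to 5 counts in each of the 15 libraries and did not pass the filter on low counts. Its mean level was 0.0489 CPM in Halo-NLS, 0.0553 CPM in SOX9-mEGFP_spheroid and 0.102 CPM in SOX9-Halo_spheroid, at or near the 0.0740 to 0.107 CPM that 3 counts are worth in these libraries. No difference of Axl was detectable at this depth.

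Amotl2 encodes an angiomotin family scaffold that binds YAP and holds it at junctions, and lies at chr9:102593836-102610617. It was at 5.53, 6.63 and 7.42 CPM in Halo-NLS, at 9.48, 4.80 and 7.01 CPM in SOX9-mEGFP_budding and at 6.19, 8.55 and 9.65 CPM in SOX9-Halo_budding. It was at 26.3, 36.9 and 46.8 CPM in SOX9-mEGFP_spheroid and at 79.3, 54.7 and 72.1 CPM in SOX9-Halo_spheroid. The 3 conditions without spheroids overlapped, and each spheroid condition lay above them. Amotl2 was 5.17-fold higher in spheroids of the SOX9-mEGFP line (log2 fold change 2.37, SE 0.30, adjusted p = 2.47e-05) and 8.45-fold higher in those of the SOX9-Halo line (log2 fold change 3.08, SE 0.30, adjusted p = 1.03e-06).

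Ajuba encodes a LIM domain adaptor that binds LATS kinases at junctions, and lies at chr14:54804787-54815027. It was at 4.44, 7.18 and 12.0 CPM in Halo-NLS, at 4.38, 3.47 and 6.06 CPM in SOX9-mEGFP_budding and at 5.22, 7.54 and 10.9 CPM in SOX9-Halo_budding. It was at 49.2, 52.8 and 75.1 CPM in SOX9-mEGFP_spheroid and at 144, 164 and 173 CPM in SOX9-Halo_spheroid. As with Amotl2, only the spheroid conditions stood apart, in the same order. The log2 fold change from budding to spheroid was 3.67 (SE 0.38, adjusted p = 4.2e-06) in the SOX9-mEGFP line and 4.35 (SE 0.39, adjusted p = 3.85e-07) in the SOX9-Halo line.

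Ankrd1 encodes an ankyrin repeat protein of the nucleus and of muscle sarcomeres and lies at chr19:36089352-36097506. It had 5, 1 and 8 counts in the Halo-NLS libraries, 3, 0 and 6 in SOX9-mEGFP_budding and 1, 1 and 3 in SOX9-Halo_budding. It was at 3.78, 3.49 and 3.72 CPM in SOX9-mEGFP_spheroid and at 15.6, 6.79 and 11.5 CPM in SOX9-Halo_spheroid, so that an almost silent gene was detected in every spheroid library. The ratio of spheroid to budding, from summed counts, was 42.0 (95% exact interval 21.9 to 92.6) in the SOX9-mEGFP line and 245 (104 to 755) in the SOX9-Halo line. The fitted log2 fold changes were 5.36 (SE 0.63, adjusted p = 1.59e-05) and 7.85 (SE 0.69, adjusted p = 3.67e-07). They were 6.02 without SOX9-mEGFP_budding replicate 3 and 8.58 without SOX9-Halo_budding replicate 3.

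Myof encodes myoferlin, a ferlin family protein of plasma membrane repair, and lies at chr19:37887484-38032048. It was at 1.01, 1.06 and 1.05 CPM in Halo-NLS, at 3.19, 2.60 and 4.25 CPM in SOX9-mEGFP_budding and at 3.46, 4.41 and 6.86 CPM in SOX9-Halo_budding. It was at 167, 213 and 239.5 CPM in SOX9-mEGFP_spheroid and at 510.0, 449 and 519.6 CPM in SOX9-Halo_spheroid. Its mean was higher in each condition than in the one before in this order, and among neighbours in it only the 2 budding conditions overlapped. From budding to spheroid the log2 fold change was 5.94 (SE 0.30, adjusted p = 9.57e-09) in the SOX9-mEGFP line and 6.65 (SE 0.31, adjusted p = 1.38e-09) in the SOX9-Halo line. Ankrd1 and Myof share chromosome 19, where, over 605 genes with a mean count of at least 10, the median log2 fold change from budding to spheroid was -0.43 in the SOX9-mEGFP line and 0.49 in the SOX9-Halo line. The part of this shift in the values of both genes was not tested.

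Dock5 encodes a guanine nucleotide exchange factor for RAC and lies at chr14:67989584-68171265. It was at 40.4, 32.3 and 10.9 CPM in Halo-NLS, at 54.4, 46.8 and 37.7 CPM in SOX9-mEGFP_budding and at 34.8, 52.5 and 43.8 CPM in SOX9-Halo_budding. It was at 64.7, 83.2 and 92.5 CPM in SOX9-mEGFP_spheroid and at 31.0, 27.1 and 33.2 CPM in SOX9-Halo_spheroid. The spheroids of the lines lay on opposite sides of their budding counterparts. The log2 fold change was 0.79 in the SOX9-mEGFP line (SE 0.35, 95% interval 0.05 to 1.53, adjusted p = 0.11) and -0.52 in the SOX9-Halo line (SE 0.35, 95% interval -1.26 to 0.22, adjusted p = 0.259), and neither was called.

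**Figure D3:**
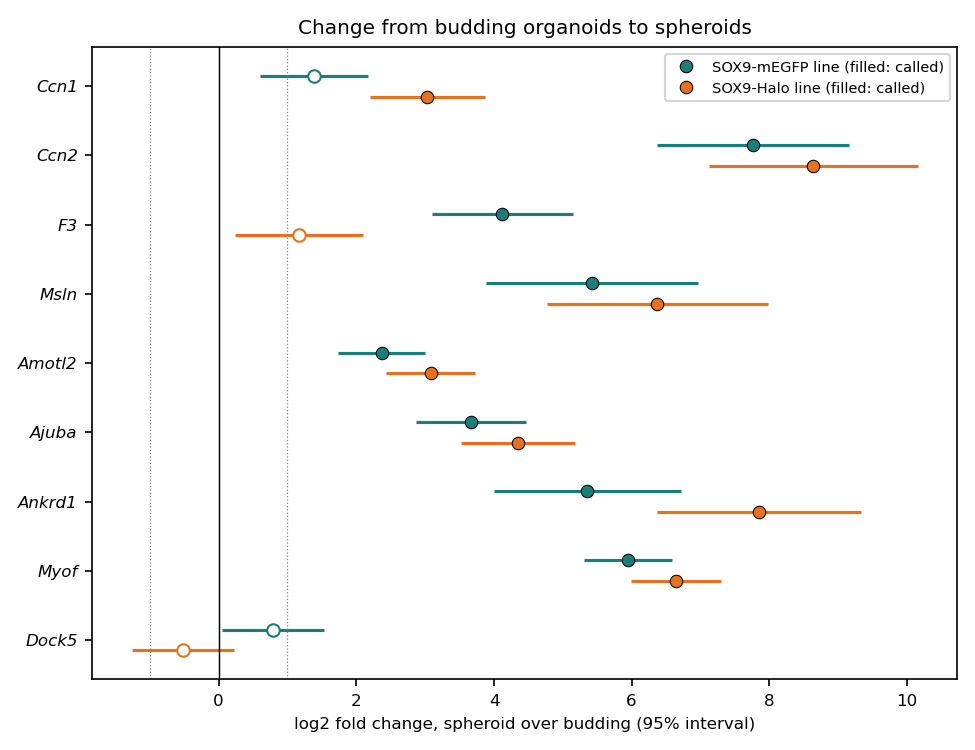
Log2 fold change from budding organoids to spheroids for the 9 tested genes in the SOX9-mEGFP and the SOX9-Halo line; bars are 95% intervals, filled points are called and dotted lines mark a log2 fold change of 1 in size. Ccn2, Ankrd1, Myof, Msln, Ajuba and Amotl2 are called in both lines, F3 is called in the SOX9-mEGFP line, Ccn1 in the SOX9-Halo line and Dock5 in neither.

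In budding organoids Myof alone was called against Halo-NLS. It was 3.21-fold higher in SOX9-mEGFP_budding (log2 fold change 1.68, SE 0.27, adjusted p = 0.0019) and 4.72-fold higher in SOX9-Halo_budding (log2 fold change 2.23, SE 0.27, adjusted p = 0.000316). That is 1 of the 10 genes in each comparison, where 1.99% and 2.49% of all genes tested were called higher, and 0 were called lower, against 0.763% and 1.26% of all genes. At an unadjusted p under 0.05 Ajuba was lower in SOX9-mEGFP_budding (log2 fold change -0.76, adjusted p = 0.135) and Ankrd1 in SOX9-Halo_budding (log2 fold change -1.85, adjusted p = 0.131), and DESeq2 called 0 lower in both. The Halo-NLS libraries are shared by these comparisons. For Myof in SOX9-mEGFP_budding the adjusted p was 0.011 without Halo-NLS replicate 2. In fits of the compared libraries alone it was 0.036 for SOX9-mEGFP_budding and 0.033 for SOX9-Halo_budding, which ended both calls. These fits called 65 and 5 of all genes higher, against 350 and 438 in the main fit. The median of chromosome 19 stood at -0.36 and -0.64 in these comparisons, opposite in sign to Myof.

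Against Halo-NLS, all 9 tested genes were called higher in SOX9-mEGFP_spheroid and 7 in SOX9-Halo_spheroid, where 15.3% and 13.6% of all genes tested were called higher. Without Ccn2 and Ankrd1 these counts were 7 and 5 of 7 genes. Myof had a log2 fold change of 7.63 (SE 0.33, adjusted p = 1.68e-09) in SOX9-mEGFP_spheroid and 8.88 (SE 0.34, adjusted p = 3.39e-10) in SOX9-Halo_spheroid. The values of Ccn1 were 1.31 (SE 0.37, adjusted p = 0.00923) and 2.39 (SE 0.38, adjusted p = 0.000107). Dock5 was at 1.52 (SE 0.35, adjusted p = 0.0027) in SOX9-mEGFP_spheroid and at 0.13 (SE 0.35, adjusted p = 0.785) in SOX9-Halo_spheroid. F3 was at 4.33 (SE 0.49, adjusted p = 6.28e-06) and at 1.16 (SE 0.44, adjusted p = 0.04), the second not called. Single libraries decided several of these calls. Ccn1 in SOX9-mEGFP_spheroid was no longer called without any one of the 3 Halo-NLS libraries, SOX9-mEGFP_budding replicate 1, SOX9-mEGFP_spheroid replicates 2 or 3, or any one of the SOX9-Halo_spheroid libraries (log2 fold change from 1.10 to 1.39, adjusted p from 0.011 to 0.042). The adjusted p of Dock5 there was 0.011 without SOX9-mEGFP_spheroid replicate 2 and 0.013 without replicate 3. With only the libraries compared, both calls were also lost, at an adjusted p of 0.012 for Ccn1 and 0.031 for Dock5, and with the replicate block in these at 0.024 and 0.036. F3 in SOX9-Halo_spheroid was called without Halo-NLS replicate 1 (log2 fold change 1.63, adjusted p = 0.0097). Without Halo-NLS replicate 3, the log2 fold change in SOX9-mEGFP_spheroid was 5.00 in place of 4.37 for Ankrd1 and 6.31 in place of 5.51 for Msln. In SOX9-Halo_spheroid it was 6.63 in place of 6.00 for Ankrd1 and 7.74 in place of 6.94 for Msln.

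Between the spheroids of both lines, Ajuba and Myof were called higher in SOX9-Halo_spheroid than in SOX9-mEGFP_spheroid, and F3 and Dock5 lower. These are 2 of 10 genes in each direction, where 3.59% of all genes tested were called higher and 9.58% lower. F3 was lower by a log2 fold change of -3.17 (SE 0.46, adjusted p = 0.000114), and Dock5 by -1.40 (SE 0.35, adjusted p = 0.00877). Ajuba was 2.72-fold higher (log2 fold change 1.44, SE 0.34, adjusted p = 0.00588) and Myof 2.38-fold higher (log2 fold change 1.25, SE 0.24, adjusted p = 0.00126). The median of chromosome 19 was 0.58 in this comparison. Ankrd1 (1.62, 95% interval 0.64 to 2.61, adjusted p = 0.0178), Ccn1 (1.08, 0.31 to 1.86, adjusted p = 0.0408), Amotl2 (0.91, 0.31 to 1.51, adjusted p = 0.0287), Msln (1.43, 0.13 to 2.72, adjusted p = 0.106) and Ccn2 (-0.70, -1.68 to 0.27, adjusted p = 0.301) were not called.

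F3 was called without each single library in turn, and the other calls rested on single libraries. Dock5 lost its call without any one of the libraries except Halo-NLS replicates 1 and 3 and SOX9-Halo_budding replicate 2 (adjusted p from 0.011 to 0.046). Ajuba lost it without SOX9-mEGFP_spheroid replicate 1 (0.034) or 2 (0.033) or without SOX9-Halo_spheroid replicate 1 (0.011), 2 (0.021) or 3 (0.024), and Myof without SOX9-mEGFP_spheroid replicate 1 (0.011). Ankrd1 gained a call without Halo-NLS replicate 2 (0.0085) or SOX9-mEGFP_budding replicate 2 (0.0095), and with the replicate number as a block (0.0086). It was also called without the low-count filter (0.00029), with only the libraries compared (0.0016) and by DESeq2 (adjusted p = 0.0007). With only the libraries compared, Ccn1 (0.0047) and Msln (0.00025) were called too, and Msln was also called without the low-count filter (1.6e-06).

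Between the budding organoids of both lines 0 of the 10 genes were called in either direction by edgeR and 0 by DESeq2, where 0.456% of all genes tested were called by edgeR. At an unadjusted p under 0.05, 2 were higher in SOX9-Halo_budding, Ajuba (log2 fold change 0.76, adjusted p = 0.57) and Myof (0.55, adjusted p = 0.574).

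**Figure D4:**
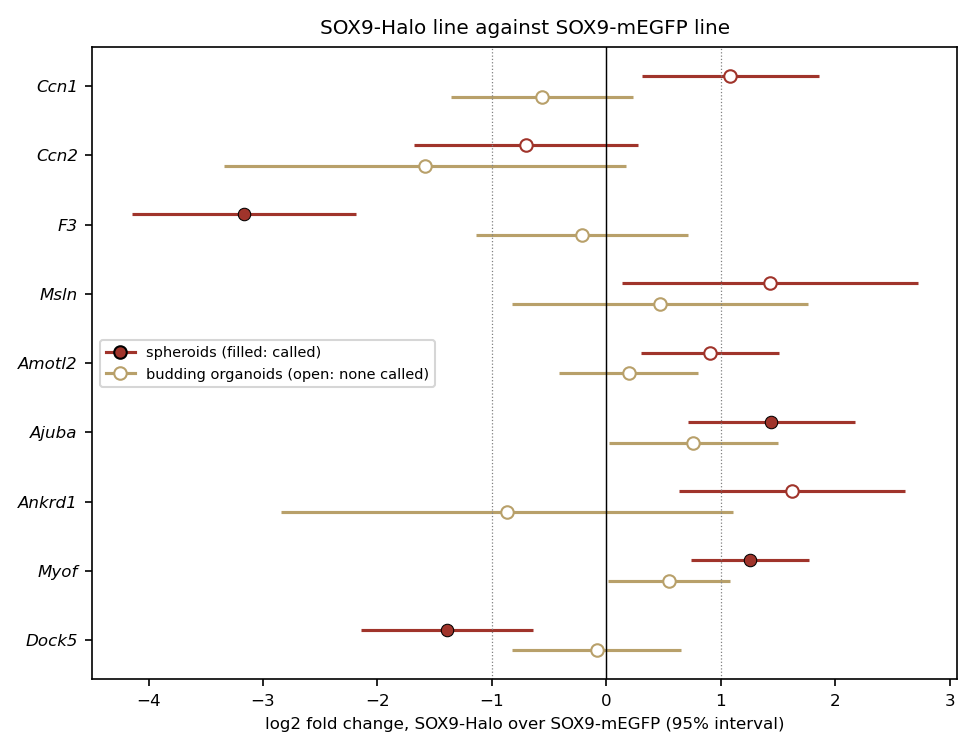
Log2 fold change of SOX9-Halo over SOX9-mEGFP for the 9 tested genes, in spheroids and in budding organoids; bars are 95% intervals, filled points are called and dotted lines mark a log2 fold change of 1 in size. Among spheroids Ajuba and Myof lie to the right and F3 and Dock5 to the left, and among budding organoids no gene is called.

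The change from budding to spheroid was compared between the lines by an interaction term. F3 alone was called, with a change smaller in the SOX9-Halo line by -2.95 on the log2 scale (SE 0.62, 95% interval -4.27 to -1.63, adjusted p = 0.00444). That is 1 of 10 genes called lower, against 5.58% of all genes tested. The call was lost without SOX9-mEGFP_budding replicate 2 (adjusted p = 0.016) or 3 (0.014), SOX9-Halo_budding replicate 3 (0.016), SOX9-mEGFP_spheroid replicate 2 (0.013) or 3 (0.01, just past the threshold), or SOX9-Halo_spheroid replicate 2 (0.017) or 3 (0.016), with values from -2.62 to -2.96. Dock5 had an interaction of -1.31 (95% interval -2.36 to -0.26, adjusted p = 0.102), which was called without Halo-NLS replicate 3 (adjusted p = 0.0083). Ccn1 (1.65, 95% interval 0.54 to 2.75, adjusted p = 0.0504) and Ankrd1 (2.49, 0.25 to 4.74, adjusted p = 0.155) had an unadjusted p under 0.05, and 0 genes were called higher by edgeR, against 1.81% of all genes tested, or by DESeq2. For Ccn2, Amotl2, Ajuba, Myof and Msln the interaction was positive and its interval included 0. The median of chromosome 19, which holds Myof and Ankrd1, was 0.89 in this comparison, against 0.71 for Myof, and its part in the values of both genes was not tested.

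Whether the genes of the pathway moved with these targets was examined on a list of 30 Hippo pathway and TEAD genes, of which 26 were tested. From budding to spheroid 6 were called higher and 0 lower in the SOX9-mEGFP line, while the SOX9-Halo line had 8 higher and 1 lower, with median log2 fold changes of 0.21 and 0.15. The shares over all genes tested, given above, were 8.55% higher and 7.88% lower, and 10.5% higher and 14.7% lower. Yap1 itself was at 62.1 ± 10.5 CPM in Halo-NLS and between 82.6 and 92.5 CPM on average in the other conditions, and its log2 fold change was 0.16 in the SOX9-mEGFP and -0.08 in the SOX9-Halo line (adjusted p = 0.589 and 0.758). Wwtr1, which encodes TAZ, had 6 to 19 counts per library in the 3 other conditions and was at 19.4 ± 5.24 CPM in SOX9-mEGFP_spheroid and 36.8 ± 3.52 CPM in SOX9-Halo_spheroid (log2 fold change 6.20, SE 0.48, adjusted p = 3.11e-07, and 6.82, SE 0.48, adjusted p = 4.44e-08). Its counts outside spheroids lay around the cutoff of the low-count filter, 0.299 CPM. Whether Wwtr1 or other genes of the lists passed this filter only through spheroid libraries was not examined. Among the TEAD factors Tead4 rose from 1.94 to 19.5 CPM and from 1.62 to 33.2 CPM (log2 fold change 3.34 and 4.36, adjusted p = 1.39e-05 and 5.99e-07). Tead2 rose in the SOX9-Halo line (2.29, adjusted p = 0.00497) and was at 0.02 in the SOX9-mEGFP line, with an interaction of 2.27 that was not called (adjusted p = 0.079). Tead1 (0.14 and 0.15) and Tead3 (-0.62 and -0.37) were not called.

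Other Hippo genes called in both lines were Amotl1, an angiomotin paralog (6.43 and 7.80), Frmd6, an upstream FERM domain protein (3.08 and 3.57), Wwc2, of the KIBRA family (5.69 and 6.28), and Lats2, a YAP kinase gene that is itself a YAP target (1.19 and 1.48). Stk3, which encodes the kinase MST2, rose by 1.73 and Wtip, an Ajuba family adaptor gene, fell by 1.66 in the SOX9-Halo line, and their values in the SOX9-mEGFP line were 0.54 and 0.28.

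Of 14 other YAP and TAZ target genes, 11 were tested. In the SOX9-mEGFP line 5 were called higher and 1 lower, while the SOX9-Halo line had 4 higher and 2 lower, with medians of 1.19 and 0.22, beside the same shares over all genes. The 2 lower of 11 in the SOX9-Halo line are near the 14.7% of all genes. Lats2 is on this list too. Ptpn14 (5.07 and 6.82), Igfbp3 (5.31 and 3.47) and Rbms3 (3.28 and 3.85) rose in both lines. Nt5e, which encodes the ecto-nucleotidase CD73, was at 19.2 ± 6.58 CPM in SOX9-mEGFP_spheroid and at 0.295 ± 0.298 CPM in SOX9-Halo_spheroid, and its interaction was -6.48 (SE 0.93, adjusted p = 0.000212). Arhgef17 had a log2 fold change of 1.59 in the SOX9-mEGFP line (adjusted p = 0.0114, not called), and in the SOX9-Halo line its summed counts went from 280 to 4, a 63.7-fold lower level (95% exact interval 24.6 to 235). Its interaction was -7.48 (SE 0.80, adjusted p = 1.6e-05). Fjx1 fell in both lines, from a summed 137 to 8 counts and from 90 to 1. The other target genes did not share a direction.

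**Figure D5:**
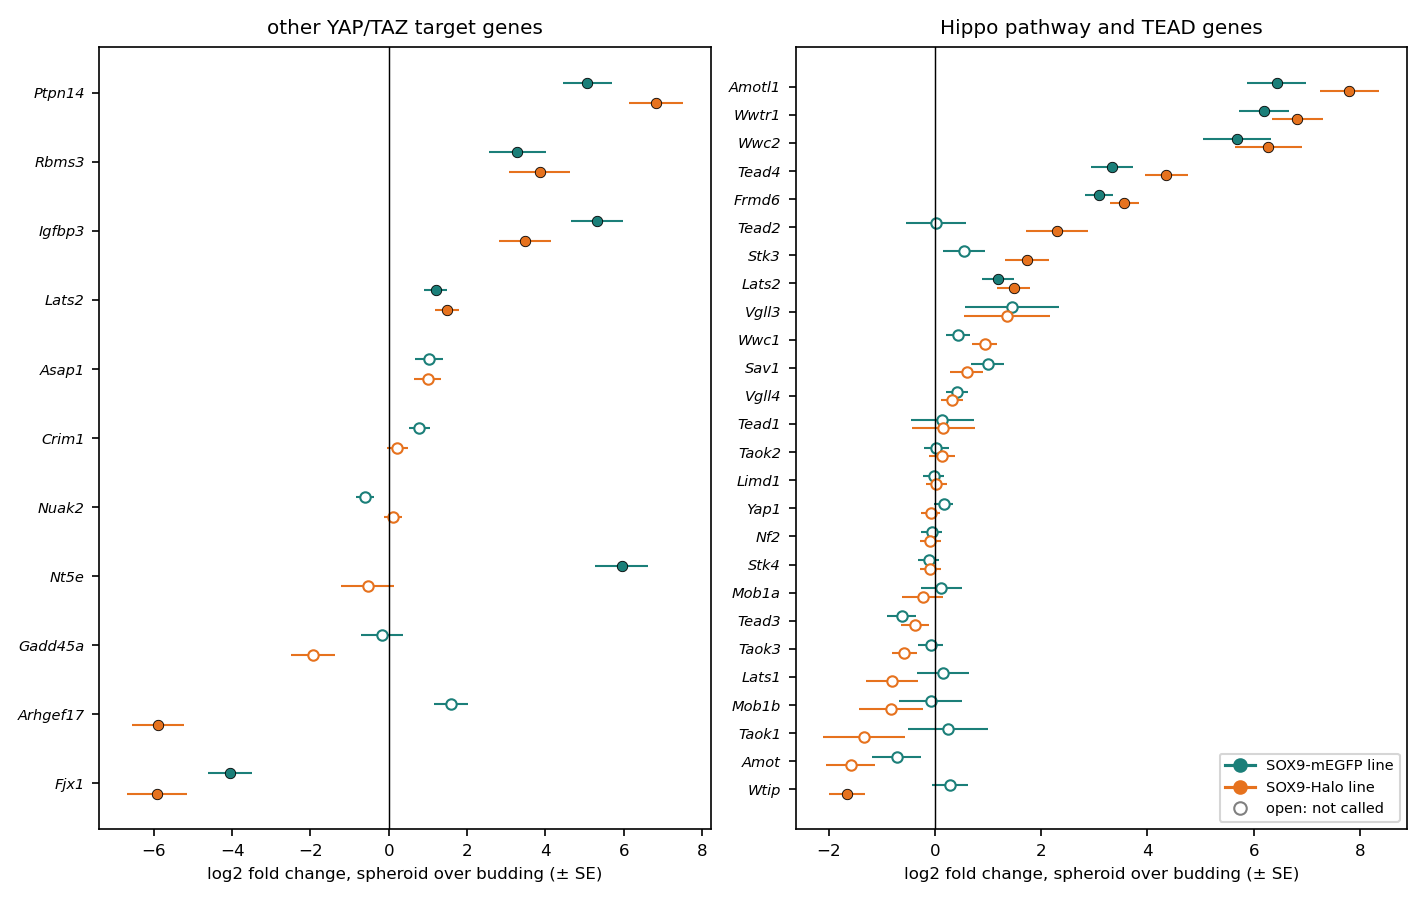
Log2 fold change from budding organoids to spheroids, with SE, for the tested genes of 2 lists, other YAP and TAZ target genes (left) and Hippo pathway and TEAD genes (right), in the SOX9-mEGFP and SOX9-Halo lines; filled points are called. Ptpn14, Rbms3, Igfbp3, Wwtr1, Amotl1, Wwc2, Tead4 and Frmd6 lie high in both lines, Yap1 lies near 0, and Arhgef17 and Nt5e differ between lines.

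Several YAP targets are also induced by acute stimulation, so 15 immediate early genes were examined. From budding to spheroid 6 were called higher and 0 lower in each line, beside 8.55% and 10.5% of all genes called higher. The median log2 fold change of the 15 genes was 1.87 in the SOX9-mEGFP and 1.25 in the SOX9-Halo line. Their summed level was 366 to 560 CPM in SOX9-mEGFP_budding and 758 to 1238 CPM in SOX9-mEGFP_spheroid. It was 312 to 504 CPM in SOX9-Halo_budding and 617 to 756 CPM in SOX9-Halo_spheroid, so that the conditions of a line did not overlap, and 499 to 679 CPM in Halo-NLS. The 3 most abundant were Junb (log2 fold change 1.24, adjusted p = 0.0151, and 1.43, adjusted p = 0.00443), Ier2 (0.12 and 0.47) and Zfp36 (0.08 and 0.22), of which Junb was called in the SOX9-Halo line. The part of such stimulation in the levels of the 10 genes was not tested.

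Several of the 10 genes are also known from mesenchymal and endothelial cells, whose markers were low. Summed over 12 mesenchymal markers the level was 8.58 to 9.74 CPM in Halo-NLS, 3.48 to 7.60 CPM and 2.21 to 9.31 CPM in the budding SOX9 conditions, 1.48 to 1.88 CPM in SOX9-mEGFP_spheroid and 1.18 to 2.15 CPM in SOX9-Halo_spheroid. Dcn, Lum and Postn were at 0 in both spheroid conditions, and Col3a1 and Thy1 in SOX9-Halo_spheroid. Summed over 6 endothelial markers it was at most 3.75 CPM and over 8 immune markers at most 11.4 CPM in any library. Immune markers were highest in SOX9-mEGFP_spheroid, at 6.58 to 11.4 CPM. The 9 epithelial markers summed to between 6036 and 12373 CPM in every library, but not evenly over conditions. Their sum was 12071 to 12373 CPM in SOX9-mEGFP_spheroid and 6193 to 6848 CPM in SOX9-Halo_spheroid. From budding to spheroid 1 was called higher and 1 lower in the SOX9-mEGFP line, beside 8.55% and 7.88% of all genes tested. In the SOX9-Halo line 1 was called higher and 5 lower, beside 10.5% and 14.7%.

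Reads were counted without regard to strand, and reads on bases shared by several genes were left out, so exons overlapped by antisense genes were not counted in full. Antisense RNAs shared 36.5% of the exon bases of Ccn2 (Gm15270, 0 to 20 counts per library), 24.3% of Ankrd1 (Gm56671, 0 to 7), 23.0% of Ccn1 (Gm17501, 1 to 7), 20.7% (Gm64338, 3 to 27) and 14.2% (Gm43823, 0 in all) of F3, and 1.03% of Dock5 (Gm63266, 0 to 2). The size of this loss was not tested.

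The genes with the most similar profile to each of the 9 were sought among 10994 tested genes with a mean count of at least 100, by Pearson's r of log2 CPM over the 15 libraries. The libraries share 5 conditions, and the values are a description. Msln was most like Msn (r = 0.995), Myof most like Fkbp9 (0.994), Ajuba most like Phlda3 (0.993), Ccn2 most like Cwh43 (0.990), Ankrd1 most like Clip4 (0.988), Amotl2 most like Cryab (0.986) and Ccn1 most like Slc7a5 (0.975). Frmd6, named above, was the third for Myof (0.991), and Amotl1 the third for Ankrd1 (0.983). Dock5 was most like Stim2 (0.973) and F3 most like Nlrp10 (0.959). Among the 9 genes themselves, Ajuba and Msln were most alike (0.979). Dock5 had r between 0.03 and 0.36 with all others except F3 (0.711).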

How the data were processed

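Poly-A RNA was sequenced in 15 libraries. The authors trimmed reads with cutadapt 4.5, aligned them with STAR to mm39 (GRCm39) and passed uniquely placed reads to HTSeq 2.0.2 (union mode, no strand), and they deposited the resulting counts unnormalized. Their tables of normalized counts and of comparisons (fold changes and p-values) were not used. Reads on no gene (1.83% to 6.09%) and on more than 1 gene (9.65% to 13.6%) stayed out.

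Counts were filtered with filterByExpr, scaled with TMM and fitted with the quasi-likelihood test of edgeR 4.0.16 in R 4.3.3, with 1 coefficient per condition over 15 libraries, following the thresholds of the methods (adjusted p 0.01, log2 fold change 1, mean count 10). The fitting steps were also run on simulated counts with known changes, which does not bear on the calls in these data. SE was taken from the F statistic (size of the log2 fold change over the root of F). The genes and lists were chosen with earlier results of these data known. Named from the pathway lists are genes called in either line between spheroid and budding, plus Yap1, Wwtr1 and Tead1 to Tead4, from the immediate early genes the 3 most abundant, and by profile the most similar genes. CPM are TMM-scaled, and RPKM used exon lengths of GENCODE M39, which holds 78168 of the 78298 identifiers. Alternatives were other scalings (RLE, library sizes alone), no low-count filter, other thresholds, each library left out, only the compared libraries, the replicate number as a block, and DESeq2 1.42.0.

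Whether replicate numbers pair libraries was checked by the correlation of deviations from condition means. Of 30 same-numbered pairs, 17 exceeded 0.1. All 3 did so between SOX9-Halo_budding and SOX9-Halo_spheroid alone (0.18 to 0.311), while a single pair elsewhere reached 0.697. The labels do not say what a number shares, so a pairing of libraries was not established. The main fit took no account of the numbers.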

Additional observations from a re-analysis of the deposited data

Results flagged for a closer look

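F3 differed between the lines in its change from budding organoids to spheroids, by -2.95 on the log2 scale (SE 0.62, adjusted p = 0.00444, edgeR's quasi-likelihood test of the interaction). Its level rose in all 3 SOX9-mEGFP_spheroid libraries to at least 81.2 CPM, and in the SOX9-Halo_spheroid libraries it reached at most 16.6 CPM. The call of the interaction was lost when any 1 of 7 libraries was left out (adjusted p up to 0.017).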

How the results depend on the processing

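Of 1932 log2 fold changes under alternatives, 1802 kept direction and side of the threshold. The alternative thresholds reused the fold changes of the main fit, so direction could not change there. Many of the left-out libraries also lay outside the comparison concerned. The counts of genes called from budding to spheroid stayed at 7 or 8 in both lines, those against Halo-NLS at 7 to 9 in SOX9-mEGFP_spheroid and 7 or 8 in SOX9-Halo_spheroid. Leaving out single libraries gave 0 to 1 called higher in SOX9-mEGFP_budding against Halo-NLS, 0 to 3 higher and 1 to 2 lower in SOX9-Halo_spheroid against SOX9-mEGFP_spheroid, and 0 to 2 lower for the interaction. Against Halo-NLS, 0 were called in SOX9-mEGFP_budding at a log2 fold change of at least 2. The count was also 0 with only the libraries compared and with the replicate block in these, as in SOX9-Halo_budding. Of all genes, 196, 65 and 145 were called higher in SOX9-mEGFP_budding under these settings, against 350 in the main fit. In SOX9-Halo_budding the last 2 settings called 5 and 20 higher, against 438. In SOX9-Halo_spheroid against SOX9-mEGFP_spheroid 4 were called higher at an adjusted p of at most 0.05, beside 879 of all genes. At a log2 fold change of at least 2 this was 0, beside 320, and without the low-count filter 4, beside 799. With only the libraries compared it was 5 beside 943, and with the replicate block in these 5 beside 932. The count called lower was 1 at a log2 fold change of at least 2, with RLE scaling and with library sizes alone. Beside it, 1229, 1631 and 1651 of all genes were called lower. The main fit called 630 of all genes higher and 1683 lower in this comparison. These settings differ from the main fit in samples, genes, scaling or thresholds, and what moved the counts was not tested.

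Values that changed sign were uncalled throughout. In SOX9-mEGFP_budding against Halo-NLS Ccn1 was at 0.20 with library sizes alone. In SOX9-Halo_budding against Halo-NLS, Ajuba (-0.00) and F3 (-0.01) were at 0.32 and 0.29 with library sizes alone, at 0.08 and 0.02 without the low-count filter, at 0.03 and 0.14 with the replicate block, and at 0.06 and 0.08 with the block in only the libraries compared, where without block Ajuba was at 0.02. With single libraries left out, Ajuba ranged from -0.28 to 0.43, F3 from -0.33 to 0.45 and Msln from -0.64 to 1.36 there. In SOX9-mEGFP_budding against Halo-NLS the ranges were -0.58 to 0.21 for Ccn1, -1.04 to 0.65 for Ccn2, -0.14 to 0.35 for Amotl2, -0.44 to 0.89 for Msln and -0.31 to 0.67 for F3. Between the budding lines they were -0.24 to 0.06 for Dock5, -0.78 to 0.95 for Msln and -0.49 to 0.30 for F3. Dock5 in SOX9-Halo_spheroid against Halo-NLS ranged from -0.25 to 0.50, and the interaction of Ccn2 from -0.37 to 2.23. The replicate block over all libraries called Ccn1 higher from budding to spheroid in the SOX9-mEGFP line (1.42, adjusted p = 0.0039). In the SOX9-Halo line the block changed no call. Counts of 0 to 15 per library limit Ccn2, Ankrd1 and Axl outside spheroids. With RLE scaling Ccn1 in SOX9-mEGFP_spheroid against Halo-NLS lost its call (adjusted p = 0.011).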
